A study of Homo sapiens with 6 samples.

Results

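The Hippo pathway and the genes that its effectors YAP and TAZ switch on through TEAD transcription factors were examined in SW480 cells, an established human colon carcinoma line, after depletion of gankyrin. The 34 genes were taken from a list of standard members, chosen with earlier results of these data known. They comprise 20 pathway components, 11 target genes and 3 genes that are both (AMOTL2, LATS2 and PTPN14). Of these, 33 had a probe set annotated to that gene alone, among 19775 genes so represented on the array, and 31 passed the filter on dim probe sets. AMOT and ANKRD1 lay below the filter and were not tested. NUAK2, a kinase gene, shares its probe set with another gene and has no value here. Knockdown cells carried an shRNA against gankyrin for 4 days (n = 3 arrays) and control cells a non-targeting shRNA for 4 days (n = 3 arrays). The cells of both groups grew in DMEM with fetal bovine serum and had no other treatment. The number of hairpins used and whether replicates were separate cultures are not stated in the labels, so the spread behind the p-values may be technical.

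The Hippo pathway is a kinase cascade that restrains organ size and cell growth. The MST kinases (STK3 and STK4) with their scaffold SAV1 phosphorylate the LATS kinases and their MOB1 cofactors, and LATS phosphorylation keeps the coactivators YAP (YAP1) and TAZ (WWTR1) in the cytoplasm or marks them for degradation. When the cascade is off, YAP and TAZ enter the nucleus, bind TEAD factors and raise growth and matrix genes such as CCN1 and CCN2; in the intestine they are known for their part in regeneration and in colon tumours. The steps from the MST kinases to YAP and TAZ act on proteins, whereas the arrays measured only mRNA.

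Values are log2 probe set signals, on which a difference of 1 is 2-fold, and each gene is given by its brightest single-gene probe set. A gene rose or fell where limma's adjusted p, over all 14199 genes tested, was under 0.05. A gene's other probe sets past the filter were tested in a second fit, with p adjusted over all 32759 probe sets, of which 6.54% fell and 4.05% rose. The target of the hairpin, PSMD10 (gankyrin), had 6.58, 6.47 and 6.30 in gankyrin shRNA arrays, against 10.19, 10.23 and 10.15 in control arrays. NFIL3, which 1 sentence of the design names in its place, averaged 9.07 ± 0.05 in gankyrin shRNA arrays and 9.33 ± 0.13 in control arrays (SD, n = 3 each). NFIL3 fell too, by 0.26 ± 0.07 on the log2 scale (limma adjusted p = 0.0281), a call lost in 5 of 15 alternative settings (limma adjusted p = 0.0621 to 0.112). Array medians lay between 4.20 and 4.25, and control replicate 3 was the least like its group (mean correlation across genes 0.993, against up to 0.998). It held the highest control value for 22 of the 31 tested genes, so the counts below are also given without it. Of 8 colon epithelial markers 7 had a mean above 4.48, the level under which 95% of 107 odorant receptor probe sets lay, and CDX2 was below it. Their summed level was 14.07 to 14.11 in gankyrin shRNA arrays and 14.16 to 14.21 in control arrays, while CDH1, KRT19 and KRT20 fell and VIL1 rose; the part of these shifts in the results below was not tested. Of 6 fibroblast markers COL1A1 and DCN lay above 4.48. COL1A2, COL3A1 and LUM were below the filter and not tested, and COL1A1, DCN and PDGFRB did not pass. The dimmer of the 2 COL1A1 probe sets past the filter passed as lower in the second fit. The summed level of the fibroblast markers was 7.75 to 7.81 in gankyrin shRNA arrays and 7.42 to 7.83 in control arrays. The endothelial markers CDH5, VWF and KDR and the leukocyte marker PTPRC averaged below 3.6, the filter limit, while the endothelial marker PECAM1 and the leukocyte marker CD3E averaged 5.08 and 4.97 and did not pass.

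Of the 31 tested genes, 14 fell and 1 rose, where 14.3% of all tested genes fell and 8.13% rose. The median log2 fold change of the 31 was -0.25, against -0.02 over all genes. Because earlier results were known when the genes were chosen, these contrasts with all genes are descriptions, not tests. All 3 gankyrin shRNA values lay below all 3 control values for 16 of the 31 genes and above them for 1; over all tested genes these shares were 24.6% and 15.7%. Among the 19 tested components 7 fell and 1 rose (median -0.20), among the 9 tested targets 5 fell and 0 rose (median -0.31; 6 targets had an unadjusted p under 0.05, all of them lower), and of the 3 genes of both kinds 2 fell. Without control replicate 3 the counts were 15 falls and 1 rise, with 8 falls among components and 5 among targets, and 16.6% of all genes fell. Without gankyrin shRNA replicate 1 there were 9 falls in all and 4 among components, and the share of all genes that fell was also smaller, at 7.78%. For a single gene, exact permutation of 3 against 3 arrays (two-sided) cannot go below p = 0.1. In RNA from a whole culture, fewer cells that express a gene and less of its RNA per cell cannot be told apart.

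**Figure D1:**
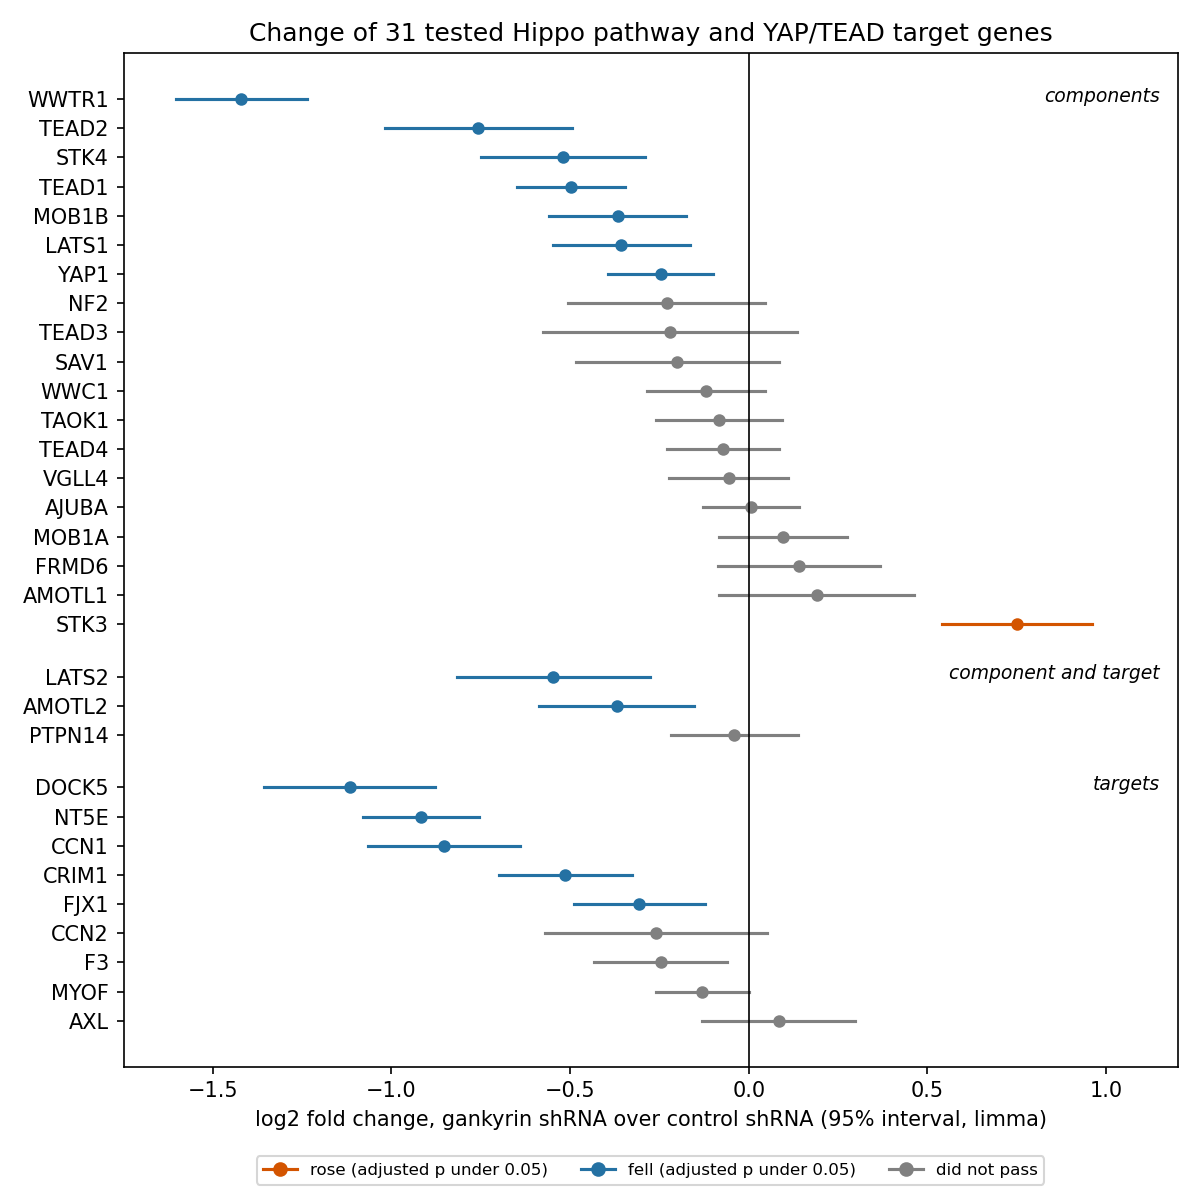
Log2 fold change (x axis, gankyrin shRNA over control shRNA) of each tested gene with its 95% interval from limma, grouped into components, genes of both kinds and targets. The components run from -1.42 for WWTR1 to 0.75 for STK3, and 8 of the 9 targets lie left of 0.

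TEAD factors bind the letters GGAATG. For AP-1 factors, which often sit beside them, the pattern TGANTCA was used, which is looser than their usual site in allowing any middle letter. The 250 bases before annotated start sites were searched for both on either strand in RefSeq sequence of GRCh38.p14 and no match to one overlapped a match to the other in the windows of these genes. Start sites were listed for 28 of the 34 genes, giving 41 windows; STK3, TEAD1, TEAD4, CCN1, CRIM1 and DOCK5 had none listed. The counts therefore cover 2 of the 5 targets that fell, NT5E and FJX1. GGAATG was present in 8 of the 41 windows, against 11.9% of all 35116 windows, and TGANTCA in 4 of 41, against 6.57%. The TGANTCA matches had A or T in the middle, except for 1 TGAGTCA in F3. The windows of 4 genes are printed to set the clearest mRNA changes beside known TEAD targets. WWTR1 and NT5E had the smallest p-values of the components and of the targets, and CCN2 and ANKRD1 are the textbook TEAD targets. Capitals mark GGAATG or its reverse complement, and each sequence runs 5′ to 3′ toward the start site.
WWTR1 first listed start (chr3:149703274-149703523, minus strand): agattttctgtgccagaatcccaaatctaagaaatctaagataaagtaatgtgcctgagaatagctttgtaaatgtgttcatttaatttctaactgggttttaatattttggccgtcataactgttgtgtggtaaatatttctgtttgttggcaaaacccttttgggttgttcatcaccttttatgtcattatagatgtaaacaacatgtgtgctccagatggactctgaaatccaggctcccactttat
WWTR1 second listed start (chr3:149658026-149658275, minus strand): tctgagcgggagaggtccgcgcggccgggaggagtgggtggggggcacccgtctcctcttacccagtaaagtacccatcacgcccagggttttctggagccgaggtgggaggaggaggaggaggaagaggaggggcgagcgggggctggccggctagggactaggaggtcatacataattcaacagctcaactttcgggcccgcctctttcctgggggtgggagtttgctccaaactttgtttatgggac
NT5E (chr6:85449833-85450082, plus strand): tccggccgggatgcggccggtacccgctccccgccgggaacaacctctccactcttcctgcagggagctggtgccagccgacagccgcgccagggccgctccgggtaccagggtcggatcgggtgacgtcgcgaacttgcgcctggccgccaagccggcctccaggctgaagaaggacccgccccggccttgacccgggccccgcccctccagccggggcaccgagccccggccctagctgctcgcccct
CCN2 (chr6:131951373-131951622, minus strand): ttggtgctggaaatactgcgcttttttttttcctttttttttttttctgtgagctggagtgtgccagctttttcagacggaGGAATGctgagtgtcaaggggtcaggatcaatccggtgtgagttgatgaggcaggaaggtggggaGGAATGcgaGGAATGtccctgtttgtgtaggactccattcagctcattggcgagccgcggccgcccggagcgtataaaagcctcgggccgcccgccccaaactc
ANKRD1 (chr10:90921088-90921337, minus strand): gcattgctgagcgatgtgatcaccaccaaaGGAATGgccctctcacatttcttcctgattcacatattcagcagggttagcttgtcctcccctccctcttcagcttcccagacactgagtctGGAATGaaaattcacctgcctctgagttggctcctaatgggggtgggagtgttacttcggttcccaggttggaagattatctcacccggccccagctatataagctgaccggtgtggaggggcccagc
CCN2 holds 3 copies, beginning 169, 104 and 95 bases before the start, and ANKRD1 holds 2, at 220 and 128 bases. The WWTR1 and NT5E windows hold 0. The other genes with the letters in a window were YAP1, AJUBA, AMOTL2, PTPN14, AXL and NUAK2, which held 2 copies like ANKRD1. Of these other genes, YAP1 and AMOTL2 fell. A match is a description of letters, not of binding.

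The coactivators and their partners held the deepest fall among the 31 genes. WWTR1, which encodes TAZ, had 5.55, 5.64 and 5.55 in gankyrin shRNA arrays, against 7.04, 6.97 and 6.99 in control arrays. The groups lay far apart and each varied little. WWTR1 fell 2.68-fold (log2 fold change -1.42 ± 0.08 SE, limma adjusted p = 5.78e-06), and both of its dimmer probe sets also passed as lower, by smaller amounts (-0.55 and -0.60). With the 3 probe sets averaged the change was -0.85. YAP1, the paralogue of WWTR1, had 9.59, 9.76 and 9.57 in gankyrin shRNA arrays, against 9.82, 9.89 and 9.95 in control arrays. The groups did not overlap, but the gap between them was narrow. YAP1 fell by 0.25 ± 0.07 on the log2 scale (limma adjusted p = 0.0239), while its other probe sets were at 0.02 and 0.20 and did not pass. The YAP1 call was lost without gankyrin shRNA replicate 1 or 3 or control replicate 2, with no intensity trend, and with probe sets averaged (limma adjusted p = 0.0617 to 0.944).

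TEAD1 and TEAD2, DNA-binding partners of YAP and TAZ, were lower on their brightest probe sets. TEAD1 had 9.77, 9.75 and 9.59 in gankyrin shRNA arrays, against 10.12, 10.18 and 10.30 in control arrays, a change of -0.50 ± 0.07 (limma adjusted p = 0.000944). TEAD2 had 7.00, 6.83 and 6.73 in gankyrin shRNA arrays, against 7.50, 7.47 and 7.86 in control arrays, a change of -0.76 ± 0.12 (limma adjusted p = 0.00180). Neither pair of groups overlapped. The dimmer probe sets of TEAD1 (-0.26 and 0.05) and TEAD2 (-0.26 to 0.11) did not pass, and both calls were lost with a gene's probe sets averaged (-0.24 each, limma adjusted p = 0.0654 and 0.127). TEAD3 and TEAD4, the remaining family members, changed by -0.22 (95% interval -0.58 to 0.14) and -0.07 (-0.23 to 0.08) and did not pass. VGLL4, which competes with YAP for TEAD, changed by -0.06 (-0.22 to 0.11) on its brightest probe set, while its dimmer probe set passed as lower at -0.51.

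Within the kinase cascade 3 of 7 genes fell and 1 rose, where 14.3% of all tested genes fell and 8.13% rose. The 2 MST kinase genes moved in opposite directions. STK3, which encodes MST2, had 8.03, 8.19 and 8.08 in gankyrin shRNA arrays, against 7.19, 7.34 and 7.52 in control arrays. Every gankyrin shRNA value was above every control value. STK3 rose 1.68-fold (log2 fold change 0.75 ± 0.09 SE, limma adjusted p = 0.000594). Its only other probe set, below the filter and not tested, differed by 0.80. STK4, which encodes MST1, had 8.05, 8.06 and 7.85 in gankyrin shRNA arrays, against 8.37, 8.42 and 8.73 in control arrays. Here every gankyrin shRNA value was below every control value. STK4 fell by 0.52 ± 0.10 on the log2 scale (limma adjusted p = 0.00610), whereas its 3 dimmer tested probe sets ranged from -0.13 to 0.38 without passing; averaged, STK4 was at -0.01 (limma adjusted p = 0.951).

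LATS1, a kinase that phosphorylates YAP and TAZ, had 6.19, 6.27 and 6.37 in gankyrin shRNA arrays, against 6.66, 6.57 and 6.67 in control arrays, and MOB1B, a LATS cofactor, had 6.94, 7.06 and 7.13 in gankyrin shRNA arrays, against 7.35, 7.36 and 7.52 in control arrays. Both fell without overlap of the groups, by 0.36 ± 0.09 and 0.37 ± 0.09 on the log2 scale (limma adjusted p = 0.0158 and 0.0139). Both calls were lost without gankyrin shRNA replicate 1 or 2 (limma adjusted p = 0.0537 to 0.0793). The other LATS1 probe sets, below the filter and not tested, differed the other way, by 0.10 to 0.14. MOB1A, the close relative of MOB1B, changed by 0.10 (95% interval -0.08 to 0.28), and TAOK1, a kinase upstream of MST, by -0.08 (-0.26 to 0.09), without passing. SAV1, the scaffold of the MST kinases, changed by -0.20 on its brightest probe set, with a low value of 6.62 in control replicate 3 beside 7.04 and 7.11. Of its 4 other probe sets 2 passed as lower, at -0.63 and -1.06, while the rest were at 0.23 and 0.03 and did not pass. Without control replicate 3 the brightest probe set passed too (-0.35, limma adjusted p = 0.00346).

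Of the 5 tested upstream regulators 0 passed in limma at an adjusted p under 0.05, where 14.3% of all tested genes fell and 8.13% rose. With so few genes, a count of 0 is not set apart from those shares. None of the 5 had an unadjusted p under 0.05 either. NF2 encodes merlin, a membrane-linked activator of LATS. Its brightest probe set had 8.01, 7.86 and 7.91 in gankyrin shRNA arrays, against 7.97, 8.02 and 8.48 in control arrays, and the groups overlapped. The change was -0.23 (95% interval -0.50 to 0.04), but all 7 dimmer tested probe sets were higher, by 0.21 to 1.30, and 2 of them passed. With its probe sets averaged NF2 was at 0.51 and passed as higher (limma adjusted p = 0.00911), so its direction depends on the probe set. Which transcripts each probe set reads was not tested. WWC1 (KIBRA), which works with merlin, was at -0.12 (-0.28 to 0.04); FRMD6, another membrane-linked scaffold, at 0.14 (-0.09 to 0.37); and the LIM protein AJUBA, which binds LATS, at 0.01 (-0.13 to 0.14). AMOTL1, an angiomotin that tethers YAP, was at 0.19 (-0.08 to 0.46) from means under 4.48 in both groups. AMOT, the founding angiomotin, averaged 3.16 ± 0.08 in gankyrin shRNA arrays and 3.12 ± 0.27 in control arrays (SD, n = 3 each), below the filter.

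**Figure D2:**
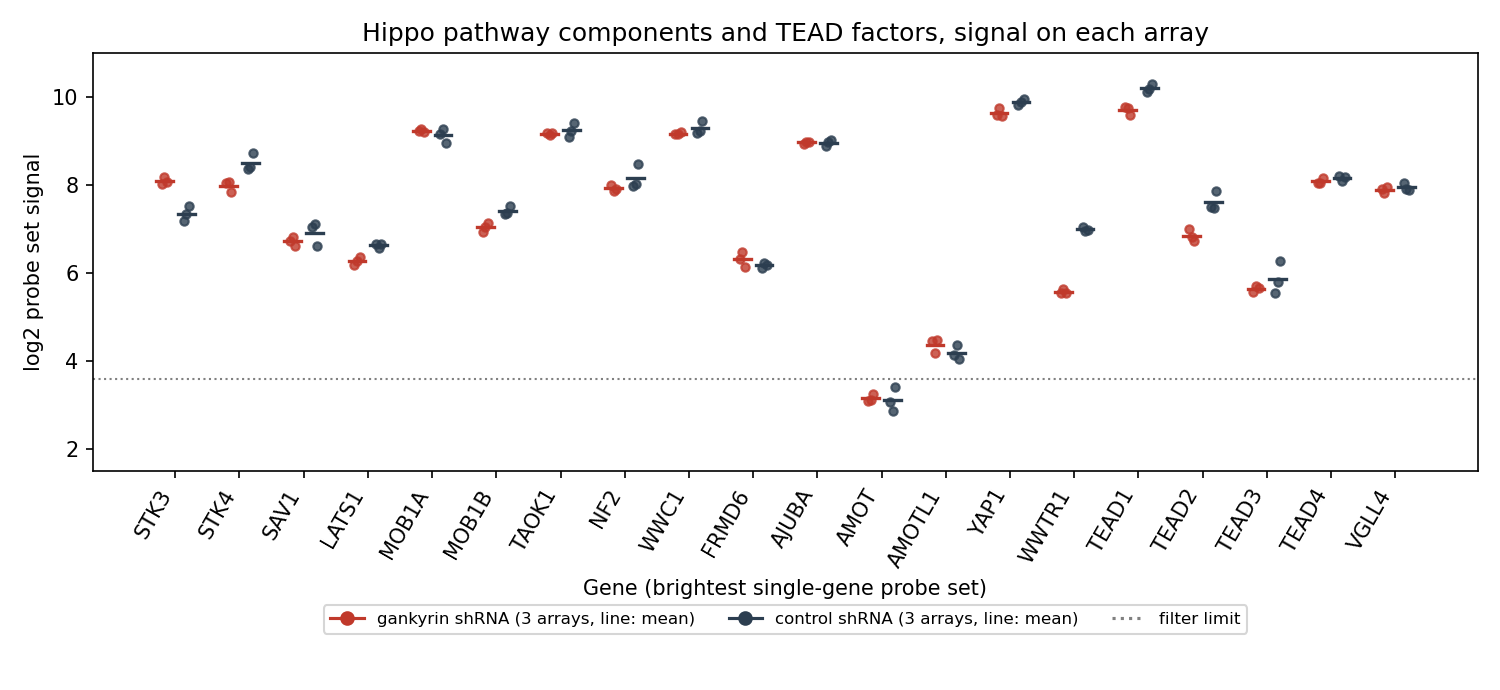
Log2 probe set signal (y axis) of the 20 components on each of the 3 gankyrin shRNA arrays (red, left) and 3 control shRNA arrays (dark, right), with lines at the means and the filter limit of 3.6 dotted. WWTR1 shows the widest gap, 5.58 against 7.00, STK3 is higher and STK4 lower in gankyrin shRNA arrays, and control replicate 3 stands above its group for NF2, TEAD2 and TEAD3.

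Of the genes that are both components and targets, LATS2 and AMOTL2 fell. LATS2, the second LATS kinase and a feedback target of YAP, had 7.11, 6.89 and 6.75 in gankyrin shRNA arrays, against 7.30, 7.40 and 7.69 in control arrays. AMOTL2, an angiomotin that YAP induces, had 8.48, 8.78 and 8.58 in gankyrin shRNA arrays, against 8.91, 8.88 and 9.16 in control arrays. The groups overlapped for neither gene. LATS2 changed by -0.55 ± 0.12 and AMOTL2 by -0.37 ± 0.10 (limma adjusted p = 0.0109 and 0.0221). The LATS2 call was lost without gankyrin shRNA replicate 2 or 3 and with probe sets averaged (-0.25), and the AMOTL2 call without gankyrin shRNA replicate 1 or 3 (limma adjusted p = 0.0505 to 0.101). PTPN14, a phosphatase that binds YAP, changed by -0.04 (95% interval -0.22 to 0.14).

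Of the target genes, 5 of 9 tested fell, where 14.3% of all tested genes fell. All 5 had every gankyrin shRNA value below every control value, as did 24.6% of all tested genes. That separation is read from the same values as the calls and adds no support to them. DOCK5, an exchange factor for the GTPase RAC, had 5.62, 5.69 and 5.41 in gankyrin shRNA arrays, against 6.64, 6.59 and 6.84 in control arrays. The gap was wide beside the spread within each group. DOCK5 fell 2.17-fold (log2 fold change -1.12 ± 0.11 SE, limma adjusted p = 0.000122). Of its 3 dimmer tested probe sets 2 passed as lower, and the dimmest was at 0.12; with all 4 averaged DOCK5 was at -0.67.

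NT5E, the surface nucleotidase CD73 that makes adenosine, had 8.62, 8.78 and 8.75 in gankyrin shRNA arrays, against 9.51, 9.71 and 9.68 in control arrays. NT5E fell 1.89-fold (limma adjusted p = 3.88e-05), by 0.92 ± 0.07 on the log2 scale; its 3 dimmer probe sets were also lower, at -0.22 to -0.44, but did not pass, and the average over all 4 was -0.45. CCN1, a secreted matricellular protein, had 7.43, 7.38 and 7.24 in gankyrin shRNA arrays, against 8.13, 8.09 and 8.39 in control arrays. CCN1 fell 1.81-fold (log2 fold change -0.85 ± 0.10 SE, limma adjusted p = 0.000307), and its second probe set also passed, at -0.52.

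CRIM1, a membrane protein that binds BMPs, had 6.69, 6.72 and 6.73 in gankyrin shRNA arrays, against 7.18, 7.15 and 7.35 in control arrays. CRIM1 fell by 0.51 ± 0.08 on the log2 scale (limma adjusted p = 0.00225), and all 3 of its probe sets passed as lower, from -0.40 to -0.67. FJX1, the human relative of the Drosophila kinase four-jointed, had 6.54, 6.53 and 6.53 in gankyrin shRNA arrays, against 6.76, 6.82 and 6.94 in control arrays. FJX1 fell by 0.31 ± 0.08 (limma adjusted p = 0.0247); the call was lost without gankyrin shRNA replicate 1, 2 or 3 or control replicate 2 (limma adjusted p = 0.0582 to 0.0877).

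CCN2, the matricellular sister of CCN1 with the most GGAATG copies in its window, had 5.12, 5.04 and 4.58 in gankyrin shRNA arrays, against 5.14, 5.12 and 5.26 in control arrays. The groups touched at 5.12, and the change of -0.26 (95% interval -0.57 to 0.05, limma adjusted p = 0.217) did not pass. It rested largely on the 4.58 of gankyrin shRNA replicate 3, without which it was -0.09. F3, the coagulation receptor tissue factor, had 6.48, 6.49 and 6.47 in gankyrin shRNA arrays, against 6.62, 6.75 and 6.81 in control arrays. The F3 groups did not overlap, yet the change of -0.25 ± 0.08 just missed the threshold (limma adjusted p = 0.0605). F3 passed in 3 of 15 alternative settings. These were without control replicate 1 (-0.30, limma adjusted p = 0.0420), with the lowest 60% of probe sets left out, and with probe sets averaged. In the last 2 the change stayed at -0.25 (limma adjusted p = 0.0475 and 0.0479). MYOF, a membrane repair protein, was at -0.13 (-0.26 to 0.00069) without passing.

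AXL, a receptor tyrosine kinase, and ANKRD1, a cardiac ankyrin repeat protein, lay at the low end of the scale. AXL averaged 4.05 ± 0.06 in gankyrin shRNA arrays and 3.96 ± 0.08 in control arrays (SD, n = 3 each), a change of 0.08 (95% interval -0.13 to 0.30). ANKRD1 had 2.33, 2.41 and 2.48 in gankyrin shRNA arrays, against 2.21, 2.18 and 2.21 in control arrays. Those ANKRD1 values are below the filter and were not tested, although the groups did not overlap.

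**Figure D3:**
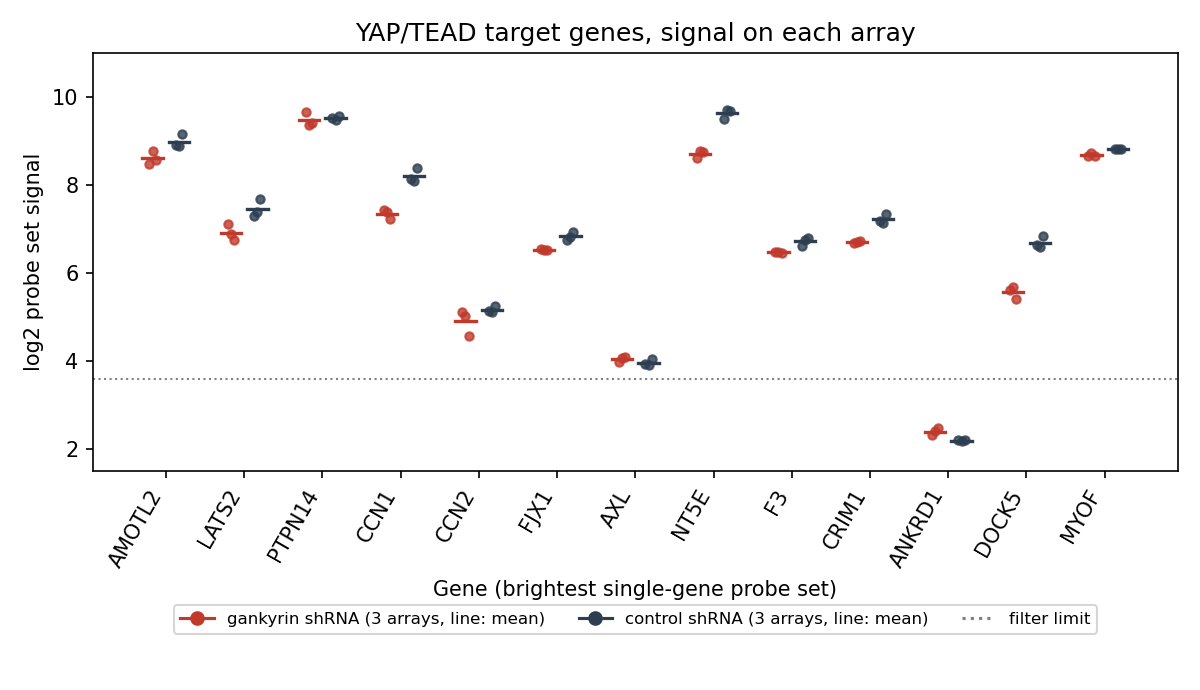
Log2 probe set signal (y axis) of the 3 genes of both kinds and 10 target genes on each of the 3 gankyrin shRNA arrays (red, left) and 3 control shRNA arrays (dark, right), with lines at the means and the filter limit of 3.6 dotted. The means of CCN1, NT5E and DOCK5 differ by -0.85, -0.92 and -1.12, AXL lies just above the limit and ANKRD1 below it.

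Several genes were read by more than 1 probe set, which allowed the calls to be compared within a gene. Of the 15 called genes 10 had more than 1 probe set past the filter, and in 4 of those 10 (WWTR1, CCN1, CRIM1 and DOCK5) a second probe set passed in the same direction. For YAP1, AMOTL2 and FJX1 no probe set passed in that fit (limma adjusted p = 0.0614, 0.0678 and 0.0561 for the brightest). The calls of 6 genes, WWTR1, STK3, DOCK5, NT5E, CCN1 and CRIM1, were kept under every one of the 15 alternative settings run. STK3 had only 1 probe set past the filter, so averaging or choosing among probe sets could not change its value. The calls of AMOTL2, FJX1, LATS1, LATS2, MOB1B and YAP1 were lost on leaving out at least 1 array.

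**Figure D4:**
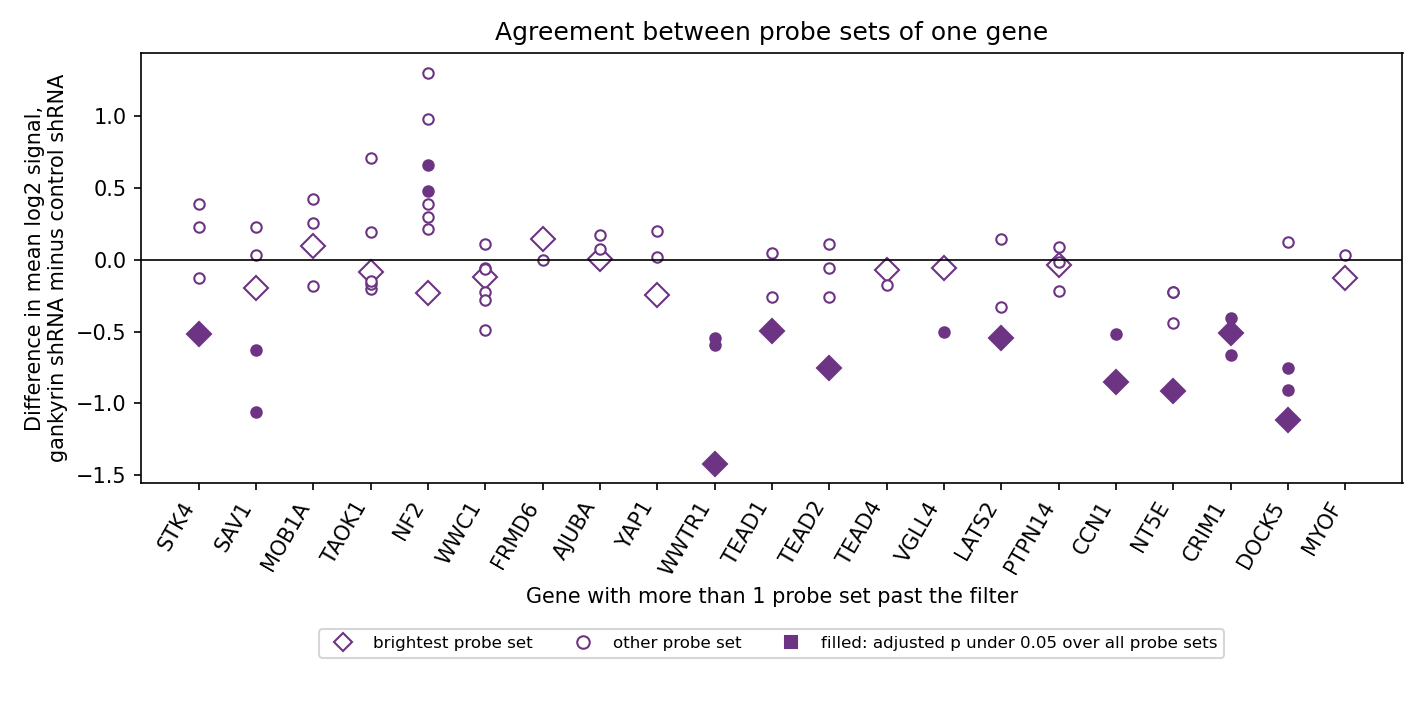
Difference in mean log2 signal, gankyrin shRNA minus control shRNA (y axis), for every probe set past the filter of the 21 genes with more than 1; diamonds are the brightest probe sets, circles the others, and filled symbols have an adjusted p under 0.05 over all probe sets. The 3 WWTR1 and 3 CRIM1 probe sets are all filled and below 0, while the 8 NF2 probe sets run from -0.23 to 1.30.

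Other genes of the pathway and other targets were read from lists of standard members. Of 28 other components 21 were tested. Of these, 5 fell and 1 rose (median -0.18), where 14.3% of all tested genes fell and 8.13% rose. The kinase STK38L (NDR2), a relative of LATS, rose by 0.39 ± 0.08 (limma adjusted p = 0.00712). WWC3, a relative of WWC1, fell with 4.90, 5.03 and 5.35 in gankyrin shRNA arrays, against 5.65, 5.75 and 6.51 in control arrays (-0.88 ± 0.21, limma adjusted p = 0.0147). RASSF1, an MST-binding protein, fell at -0.38 ± 0.09 (limma adjusted p = 0.0162), and the polarity protein PALS1 at -0.29 ± 0.09 (limma adjusted p = 0.0495). STRN and SIKE1, parts of the STRIPAK phosphatase complex that restrains MST kinases, fell at -0.28 ± 0.09 and -0.53 ± 0.16 (limma adjusted p = 0.0412 and 0.0398). None of the 2 PALS1, 7 STRN and 4 SIKE1 probe sets passed in the fit over single probe sets. For STK38L and WWC3, 1 of 2 probe sets passed, in the direction of the call.

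The 15 other targets were the rest of a 22-gene YAP/TAZ signature, whose remaining genes are among the 34 above, and further targets. Of these 15 genes 12 were tested. Of these, 2 fell and 1 rose (median 0.04), near the shares of all tested genes, of which 14.3% fell and 8.13% rose. TGFB2, a secreted growth factor, had 4.78, 4.74 and 4.59 in gankyrin shRNA arrays, against 5.15, 5.19 and 5.13 in control arrays, and CAV1, the caveolae protein, had 5.82, 5.78 and 5.75 in gankyrin shRNA arrays, against 6.06, 6.34 and 6.38 in control arrays. TGFB2 and CAV1 fell, at -0.45 ± 0.09 and -0.48 ± 0.10 (limma adjusted p = 0.00784 and 0.00952). TGFB2 was the only gene from the rest of the signature to pass. THBS1, a matrix glycoprotein, rose, with 6.60, 6.87 and 6.61 in gankyrin shRNA arrays, against 6.30, 6.43 and 6.17 in control arrays (0.39 ± 0.11, limma adjusted p = 0.0251). In the fit over single probe sets 1 of 4 THBS1 and 1 of 2 CAV1 probe sets passed, each in the direction of its call. The median of these 12 targets was near the -0.02 of all genes, unlike the -0.31 of the 9 tested targets above; the difference between the lists was not tested.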

How the data were processed

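Deposited values were log2 probe set signals, per the values themselves, for 54675 probe sets on 6 one-colour Affymetrix arrays; they ran from 1.29 to 13.68. The submitters' processing notes name MAS5; its role, its version and the summary method were not given in the sources used here. No normalization was added to the authors' log2 values. Probe sets were named from the platform annotation and updated through Entrez identifiers to RefSeq symbols (19735 of 19775 matched). After removal of 62 control probe sets, those in the lowest 40% by mean over 6 arrays (limit 3.6) were dropped, leaving 32759, and each of 14199 genes was given by its brightest single-gene probe set. limma 3.58.1 in R 4.3.3 (lmFit, eBayes with an intensity trend) was fitted over all genes, two-sided, with Benjamini-Hochberg adjustment and a threshold of 0.05; intervals are 95%. Probe sets of 1 gene were compared in a second fit over all 32759. The pipeline was tested on simulated data. The number of arrays, 3 per group, limits the precision. All 34 genes are named; of the other lists, those past the threshold. The genes and lists were chosen with earlier results of these data known. Alternatives changed the filter, scaling, variance prior, probe set choice, arrays used and replicate block. No pairing by replicate number was seen: deviations of same-numbered arrays correlated at 0.02, 0.11 and -0.01. With 3 arrays per group this cannot exclude a pairing.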

Additional observations from a re-analysis of the deposited data

How the results depend on the processing

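Of 463 values recomputed for the 31 tested genes under 15 alternatives, 21 lost and 6 gained a call and 1 changed direction with a call: NF2, at 0.51 with a gene's probe sets averaged. That setting also gave 2 rises among all genes of the set and 2 among components, in place of 1 each, and 12 falls. Over all genes 7.09% rose and 9.83% fell there, against 8.13% and 14.3% in the main fit. Of the 15 called genes 10 kept their call with averaging. STK4, TEAD1, TEAD2, LATS2 and YAP1 lost theirs, while SAV1, VGLL4 and F3 passed as lower and NF2 as higher. Leaving out 1 array gave 9 to 15 falls and 1 rise in all; among components it gave 4 to 8 falls and 1 rise, and among targets 4 to 6 falls and 0 rises. The share of all genes that fell moved as well, between 7.54% and 16.6%. The lowest counts in all and among components came without gankyrin shRNA replicate 1. Leaving out arrays leaves fewer of them, and other causes were not tested. With the replicate number as a block, 14 genes fell and 1 rose, 7 components fell and 5 targets fell, and 0 calls were lost or gained. In that fit 13.7% of all genes fell and 7.73% rose. The arrays' deviations do not bear out such a pairing, and 1 of 3 gankyrin shRNA arrays correlated best with its own number. Centring arrays on their medians or quantile normalization left 14 falls and 1 rise of the same 15 genes. Of all genes 13.3% fell and 6.31% rose with centring, and 13.9% fell and 9.61% rose with quantile normalization. Signals near the low end, as for AXL, AMOTL1, AMOT and ANKRD1, limit what can be seen there.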
